A study of Mus musculus with 13 samples.

Results

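The MHC class I antigen presentation pathway was followed through 10 genes of a table of 25965 gene intervals. They are the heavy chains H2-K1 and H2-D1, the light chain B2m, the peptide transporter genes Tap1 and Tap2, the loading factor Tapbp, the immunoproteasome subunits Psmb8, Psmb9 and Psmb10, and the transcriptional activator Nlrc5. They were taken from the table by name, as a list of the pathway's known parts, and no threshold on their values was used. The cells of the hairpin libraries were primary mouse embryonic fibroblasts (MEFs) from E13.5 embryos, with the XistΔA allele on the maternal X chromosome and a PGK X from the father. Poly(A) RNA was sequenced from 12 hairpin libraries in 4 groups of 3. Cells had a control or a Setdb1 hairpin, and each kind was left without drug or given 5-azacytidine (5-aza). The hairpin of replicates A and B was non-silencing in control groups and shSetdb1.4 in Setdb1 groups, and that of replicate 1 was against luciferase or was shSetdb1.6. Hairpins came from retroviruses, puromycin selection began after 24 h, 5-aza was present for 24 h from day 3, and RNA was taken on day 7. Per the study's results, Setdb1 hairpins went into cells with a gene-trap allele of Setdb1 and the non-silencing hairpin into Setdb1 +/+ cells. The genotype of the luciferase cells is not given there. Since genotype is not labelled library by library, its effect and that of the hairpin cannot be told apart. Replicate 1 had another hairpin than A and B, so it was a separate transduction. Nothing in the labels says that A and B were separate cultures. The p-values therefore measure the spread between these libraries, which includes that difference of hairpin and may otherwise be technical.

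MHC class I molecules show fragments of the cell's own proteins to CD8+ T cells. Proteasomes cut the proteins, the Tap1-Tap2 transporter carries the peptides into the endoplasmic reticulum, tapasin (Tapbp) holds empty class I molecules beside the transporter, and the loaded heavy chain with its light chain B2m moves to the cell surface. Fibroblasts keep the pathway low until interferon raises it through factors such as Irf1 and Nlrc5. Setdb1 is a histone H3 lysine 9 methyltransferase, and 5-aza is a cytosine analogue that blocks the maintenance of DNA methylation, so the design asked what loss of each silencing layer, alone or together, did to expression.

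The target of the hairpins was lower in the Setdb1 hairpin libraries, where hairpin and gene-trap allele cannot be told apart. Setdb1 was at 46.1 to 46.4 reads per 1000000 reads (RPM) in the control hairpin libraries and 12.1 to 15.4 RPM in the Setdb1 hairpin libraries, and at 42.7 to 44.0 against 10.4 to 14.5 RPM with 5-aza. The 12 libraries held 36.4 to 51.3 M reads in the listed genes, and RPM was relative to totals of 41.9 to 58.8 M, so 1 read was worth 0.017 to 0.0239 RPM. The test took in 13134 genes, each with 1 RPM or more in 3 or more libraries, and those with an adjusted p under 0.05 in limma were counted as changed. The fibroblast marker list, with collagens and vimentin, summed to 23255 to 35581 RPM, while the macrophage list summed to 11.3 to 16.9 RPM and the lymphoid list to 0.113 to 0.253 RPM. Since these were bulk samples, fewer cells of a type and less RNA per cell could not be told apart. A further library, with 5-aza and no named hairpin, belonged to no group and entered no comparison.

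The 10 genes were unequal in level and in depth. On GRCm38, chromosome 17 holds Tapbp (chr17:33915899-33929288), H2-K1 (chr17:33996017-34000333), Psmb9 (chr17:34181988-34187764), Tap1 (chr17:34187553-34197225), Psmb8 (chr17:34197721-34201454), Tap2 (chr17:34203527-34216321) and H2-D1 (chr17:35262730-35267499), so the transporter and 2 immunoproteasome genes are neighbours. B2m lies at chr2:122147686-122153083, Nlrc5 at chr8:94472763-94527272 and Psmb10 at chr8:105935728-105938392. Per kilobase of merged exon, the control hairpin means ran from B2m at 482 RPM per kb, through H2-D1 at 11.1, Tapbp at 9.24, H2-K1 at 4.25, Psmb10 at 2.51, Tap2 at 2.26 and Tap1 at 2.03, down to Psmb8 at 0.207, Psmb9 at 0.142 and Nlrc5 at 0.0764 RPM per kb. The light chain was thus far above either heavy chain in RNA per length. Among neighbours in that order, the ranges of H2-D1 (10.7 to 11.9 RPM per kb) and Tapbp (9.12 to 9.48) did not overlap, whereas those of Psmb10, Tap2 and Tap1 (2.38 to 2.66, 1.997 to 2.49 and 1.67 to 2.50 RPM per kb) did. Of the 10, 7 had at least 1 RPM in all 12 libraries. Psmb8 and Nlrc5 were tested only because of 5-aza libraries (6 and 3 libraries at 1 RPM or more), so their entry into the test was not independent of the drug, and Psmb9 stayed under 1 RPM in every library and was not tested.

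**Figure D1:**
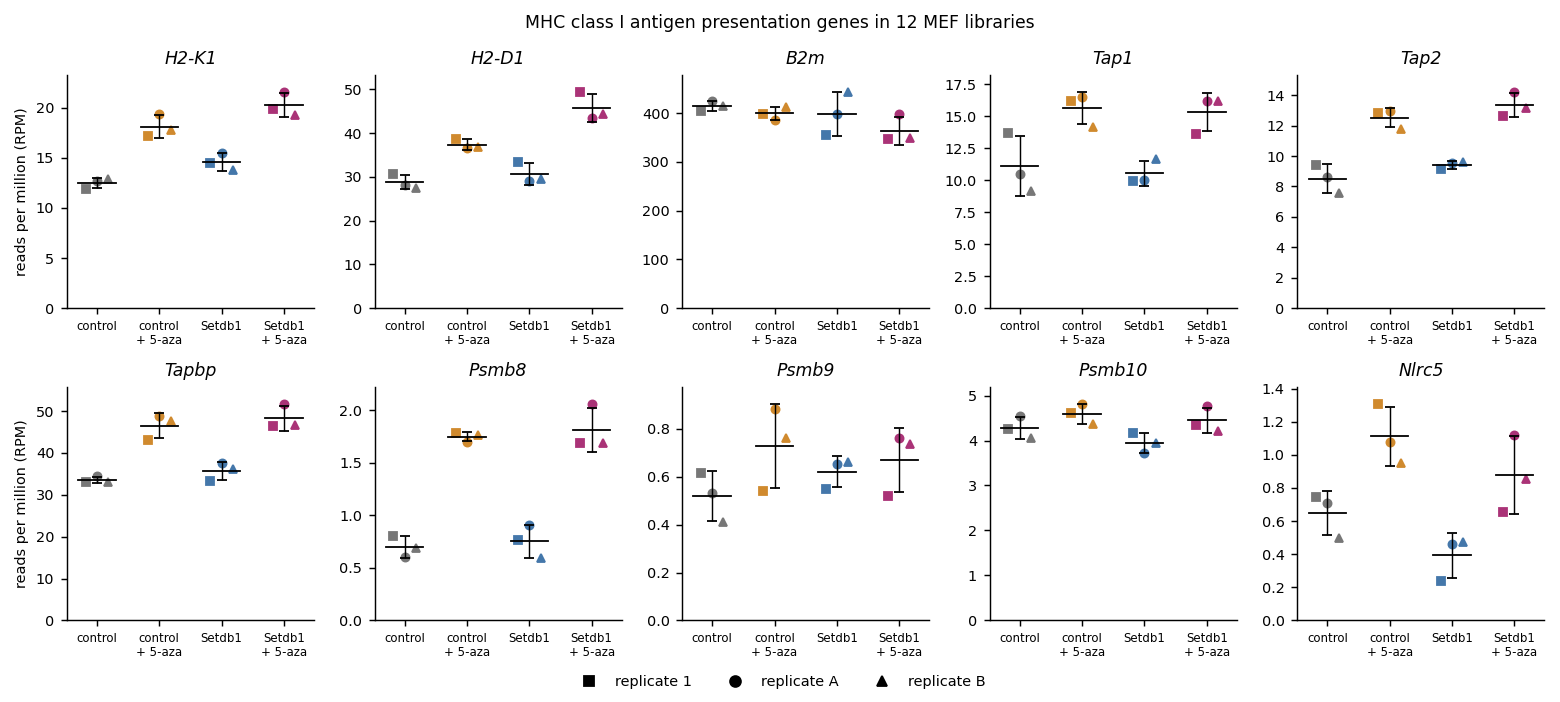
Each panel plots RPM of a class I antigen presentation gene (vertical axis, linear, from 0) in the 4 hairpin groups; points are libraries, shaped by replicate, and bars give the mean and SD of 3 libraries. H2-K1, H2-D1, Tap1, Tap2, Tapbp, Psmb8 and Nlrc5 lie higher in every 5-aza library than in any library of the same hairpin without it, and B2m does not.

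The promoters of H2-K1 and B2m are shown first because their genes share a class I regulatory module but behaved differently below. This module holds an X2 element, read by CREB-type factors, and a Y box, read by NF-Y, and Nlrc5 acts through it. The sequences are RefSeq promoter windows (GRCm38.p6), limited to bases before the transcription start that lie outside annotated exons, each 5′ to 3′ on its gene's strand. Capitals mark the X2 core TGACG, the Y box core, which reads ATTGG here (CCAAT on the other strand), and, in B2m, the interferon-stimulated response element core GAAANNGAAA. The H2-K1 stretch is chr17:34000348-34000597 on the minus strand and that of B2m is chr2:122147437-122147685 on the plus strand.
H2-K1: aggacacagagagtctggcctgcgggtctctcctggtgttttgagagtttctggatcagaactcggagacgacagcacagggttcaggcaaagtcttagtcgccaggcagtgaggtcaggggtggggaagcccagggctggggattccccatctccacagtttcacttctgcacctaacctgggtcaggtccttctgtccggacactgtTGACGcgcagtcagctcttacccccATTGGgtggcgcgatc
B2m: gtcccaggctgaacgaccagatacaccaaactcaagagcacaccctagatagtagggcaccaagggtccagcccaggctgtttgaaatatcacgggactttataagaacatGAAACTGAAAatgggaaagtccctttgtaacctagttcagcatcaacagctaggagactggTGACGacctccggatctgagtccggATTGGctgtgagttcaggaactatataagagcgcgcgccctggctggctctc

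In both sequences 20 bases lie between the X2 core and the Y box core. That spacing was noticed after the windows were read. Counting the start of transcription as 0, the first base of TGACG lies at -41 in H2-K1, -78 in B2m and -101 in H2-D1, whose window holds the same arrangement. Of 32851 windows of that length in the genome, 31 (0.0944%) held it on either strand, and these included the heavy chain gene H2-M3. Windows were found for 8 of the 10 genes. Of these 8, 6 held a Y box core (37.4% of all windows), 5 an X2 core (20.8%), 3 the Sp1 core GGGCGG (35.7%), and 1 each the GAAANNGAAA core (B2m, 3.44%) and the gamma-activated core TTCNNNGAA (Psmb8, 8.3%), on either strand. A match describes letters and not a bound site. Only exact matches to these letters were counted, so a window without a match, such as that of H2-K1, may hold a variant of an interferon-response element.

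With 5-aza most of the pathway rose by a similar, small fold. In control hairpin cells, 5 of the 7 genes above 1 RPM in all libraries rose with the drug, beside 13.47% of all genes tested. These were both heavy chains, both transporter genes and tapasin. In Setdb1 hairpin cells the 5 that rose were the same genes, beside 21.4% of all genes tested. B2m and Psmb10 were the 2 that did not pass in either. Psmb8 rose in both hairpin backgrounds and Nlrc5 passed only in Setdb1 hairpin cells, although the difference between backgrounds did not pass the test for either gene. The median log2 change of all genes was 0.042 and 0.058. The 2 comparisons have no library in common. Median centring lowered the share of all changed genes that were higher from 71.6% to 49% in control and from 74% to 52.3% in Setdb1 hairpin cells, and the same class I genes passed with it.

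H2-K1 encodes the classical heavy chain K, which binds peptide and contacts the T cell receptor. Replicates 1, A and B had 11.9, 12.7 and 12.9 RPM with the control hairpin and 17.2, 19.4 and 17.8 RPM with 5-aza added. With the Setdb1 hairpin they had 14.45, 15.5 and 13.8 RPM, and 19.85, 21.6 and 19.3 RPM with 5-aza. Groups with and without 5-aza did not overlap in either background, a separation upwards shown by 24.9% of all genes in control and 31.2% in Setdb1 hairpin cells. The log2 change was 0.54 ± 0.066 (SE) with the control hairpin (adjusted p = 0.000291) and 0.47 ± 0.066 with the Setdb1 hairpin (adjusted p = 0.000637), or 1.45-fold and 1.39-fold.

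H2-D1 encodes the classical heavy chain D. It had 30.6, 28.1 and 27.5 RPM with the control hairpin and 38.7, 36.6 and 36.9 RPM with 5-aza added. The Setdb1 hairpin libraries had 33.4, 29.1 and 29.4 RPM, and those with 5-aza 49.4, 43.5 and 44.5 RPM. Again no library with the drug fell within the range of those without it. The changes were 1.3-fold (log2 0.38 ± 0.066 SE, adjusted p = 0.00253) and 1.49-fold (log2 0.58 ± 0.066, adjusted p = 0.000236). Reads of the heavy chains may be split uncertainly, since 22.8% of the 31-base words of H2-K1 transcripts and 26.9% of those of H2-D1 also occur in other genes, those shared most being each other and H2-Q genes. The share was also 26.9% for Tapbp, 14.3% for Tap2 and 13.7% for Psmb8, and 4.79% or less for the other genes.

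Tap1 and Tap2 encode the paired chains of the peptide transporter. Tap1 had 13.7, 10.5 and 9.15 RPM in control hairpin replicates 1, A and B, and 16.2, 16.5 and 14.2 RPM with 5-aza. The Setdb1 hairpin libraries had 9.97, 9.995 and 11.6 RPM, and 13.6, 16.2 and 16.2 RPM with 5-aza. The spread among control replicates was wide, and replicate 1 was closest to the treated libraries, though below each of them. Tap1 rose 1.42-fold (log2 0.51 ± 0.131 SE, adjusted p = 0.0194) and 1.46-fold (log2 0.54 ± 0.131, adjusted p = 0.0108). In control hairpin cells that call was lost when control hairpin replicate A or B, or 5-aza replicate 1 or A, was left out (adjusted p up to 0.0847). Tap2 had 9.415, 8.61 and 7.55 RPM against 12.8, 13.0 and 11.8 RPM in control cells, and 9.135, 9.55 and 9.62 RPM against 12.7, 14.2 and 13.1 RPM in Setdb1 hairpin cells. Its groups stood apart in both backgrounds, and it rose 1.47-fold (log2 0.56 ± 0.079, adjusted p = 0.000712) and 1.41-fold (log2 0.50 ± 0.079, adjusted p = 0.00134). An antisense gene, Gm15821, covers 3148 bases of the Tap2 interval at 1.36 to 2.64 RPM, and whether counting used strand is not stated, so reads of both genes cannot be told apart there.

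Tapbp, tapasin, bridges the transporter and the empty heavy chain. It had 33.1, 34.4 and 33.1 RPM in control hairpin cells and 43.1, 48.9 and 47.55 RPM with 5-aza. Setdb1 hairpin cells had 33.2, 37.6 and 36.3 RPM, and 46.5, 51.7 and 46.6 RPM with 5-aza. The treated libraries were all above the untreated ones, and part of the interval is shared with Zbtb22 on the same strand. The rise was 1.39-fold (log2 0.47 ± 0.062 SE, adjusted p = 0.000466) and 1.35-fold (log2 0.44 ± 0.062, adjusted p = 0.000729).

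B2m, the light chain of every classical class I molecule, did not pass the test for 5-aza. It had 405, 425 and 415 RPM in control hairpin replicates 1, A and B, and 398.5, 386 and 413 RPM with 5-aza. The Setdb1 hairpin libraries had 355, 397 and 444 RPM, and 346, 397 and 349 RPM with 5-aza. The groups overlapped in both backgrounds. The log2 changes were -0.06 (95% interval -0.22 to 0.11, adjusted p = 0.632) and -0.13 (-0.29 to 0.04, adjusted p = 0.216), so a rise above 0.11 lay outside both intervals. With 14869 reads or more per library, counting error was not what limited these values.

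**Figure D2:**
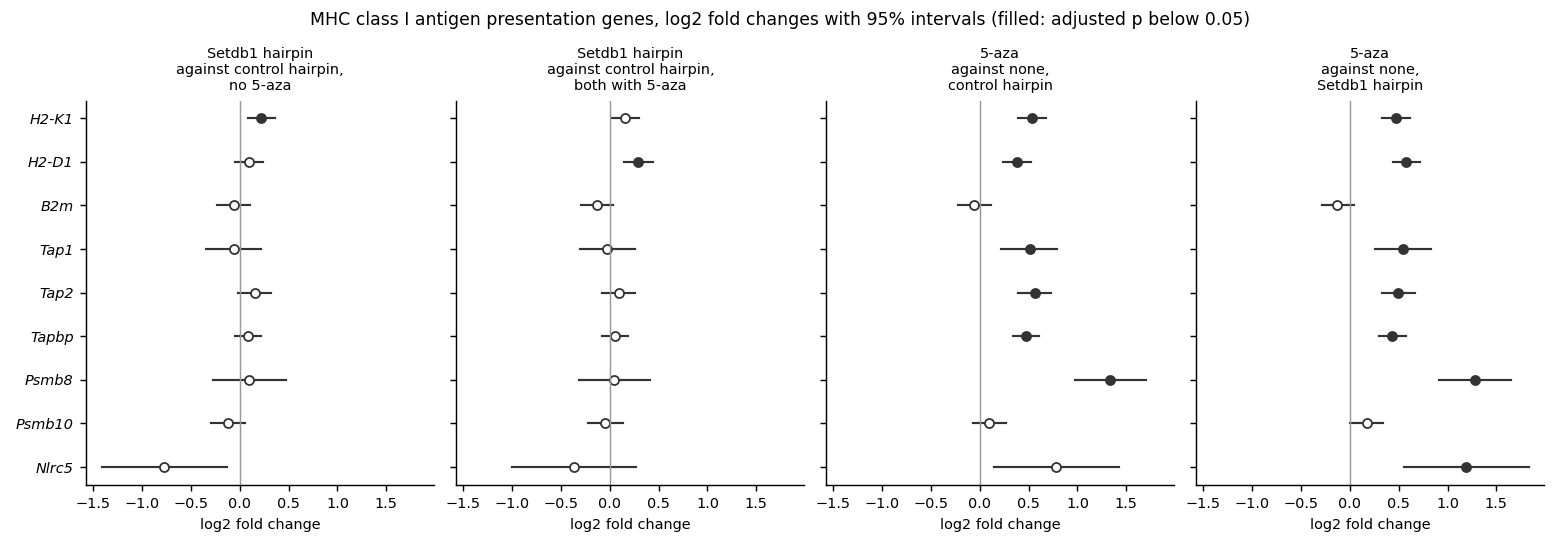
Points are log2 fold changes (horizontal axis) of the 9 tested class I antigen presentation genes in 4 comparisons, with 95% intervals from the limma fit; filled points have an adjusted p under 0.05. In the panels for 5-aza the heavy chains, transporter genes, Tapbp and Psmb8 lie to the right of 0 while B2m and Psmb10 span it, and in the panels for the Setdb1 hairpin a single gene is filled in each.

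Of the immunoproteasome subunits Psmb8 rose with 5-aza, Psmb10 did not pass the test and Psmb9 was too low to be tested. Psmb8, Psmb9 and Psmb10 replace the catalytic subunits Psmb5, Psmb6 and Psmb7 of the standard proteasome and change which peptides are cut. Psmb8 had 0.808, 0.601 and 0.690 RPM in control hairpin replicates 1, A and B and 1.78, 1.70 and 1.77 RPM with 5-aza. Setdb1 hairpin libraries had 0.763, 0.905 and 0.595 RPM, and 1.69, 2.06 and 1.69 RPM with 5-aza. These values rest on 32 to 43 reads per library without and 79 to 103 reads with 5-aza, and the groups were far apart. The rise was 2.52-fold (log2 1.33 ± 0.168 SE, adjusted p = 0.000357) in control and 2.43-fold (log2 1.28 ± 0.168, adjusted p = 0.000524) in Setdb1 hairpin cells. With no filter on low values the adjusted p was 0.00109 and 0.00131. The antisense gene Gm20496 overlaps 2140 bases of the Psmb8 interval and had 0.237 to 0.880 RPM, and its reads cannot be told apart from those of Psmb8 there.

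Psmb10 had 4.06 to 4.54 RPM in control hairpin cells and 4.36 to 4.80 RPM with 5-aza, and in Setdb1 hairpin cells 3.725 to 4.17 and 4.22 to 4.76 RPM. The change did not pass in control (log2 0.10, adjusted p = 0.4) or Setdb1 hairpin cells (log2 0.17, adjusted p = 0.121). Its interval lies within that of Gm16156, which had 12.6 to 14.5 RPM. Psmb9 lay between 0.410 and 0.883 RPM, or 19 to 41 reads, in all 12 libraries. Control hairpin replicates 1, A and B had 0.616, 0.530 and 0.410 RPM and 0.539, 0.883 and 0.763 RPM with 5-aza, so the groups overlapped. The Psmb9 and Tap1 intervals overlap by 212 bases on opposite strands and share a promoter region, and Psmb9 stayed under 1 RPM while Tap1 had 9.15 to 16.5 RPM.

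Each inducible subunit was set against the constitutive one it replaces, per kilobase of exon. Psmb8 was 0.546% ± 0.0681 (SD, n = 3) of Psmb5 in control hairpin cells and 1.27% ± 0.0436 with 5-aza, and 0.564% ± 0.126 and 1.11% ± 0.213 in Setdb1 hairpin cells. The log2 ratio was higher with 5-aza by 1.22 and 0.99, with no overlap between groups (exact permutation test, two-sided, p = 0.1 in each, adjusted p = 0.4 over 12 tests). With 3 libraries against 3, that exact test can give no smaller value. Psmb9 was 0.58% of Psmb6 and 0.773% with 5-aza in control cells (exact permutation p = 0.3). Psmb10 was 12.8% of Psmb7 and 12.9% with 5-aza (exact permutation p = 1). After the Setdb1 hairpin the ratios without and with 5-aza were 0.712% and 0.649% for Psmb9, and 11.9% and 11.8% for Psmb10. Without 5-aza the Psmb10 groups of the 2 hairpins did not overlap (log2 difference -0.100, exact permutation p = 0.1, adjusted p = 0.4). The constitutive genes did not pass in control cells with 5-aza, while Psmb5 and Psmb6 rose in Setdb1 hairpin cells (log2 0.29, adjusted p = 0.0112, and log2 0.25, adjusted p = 0.0166).

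**Figure D3:**
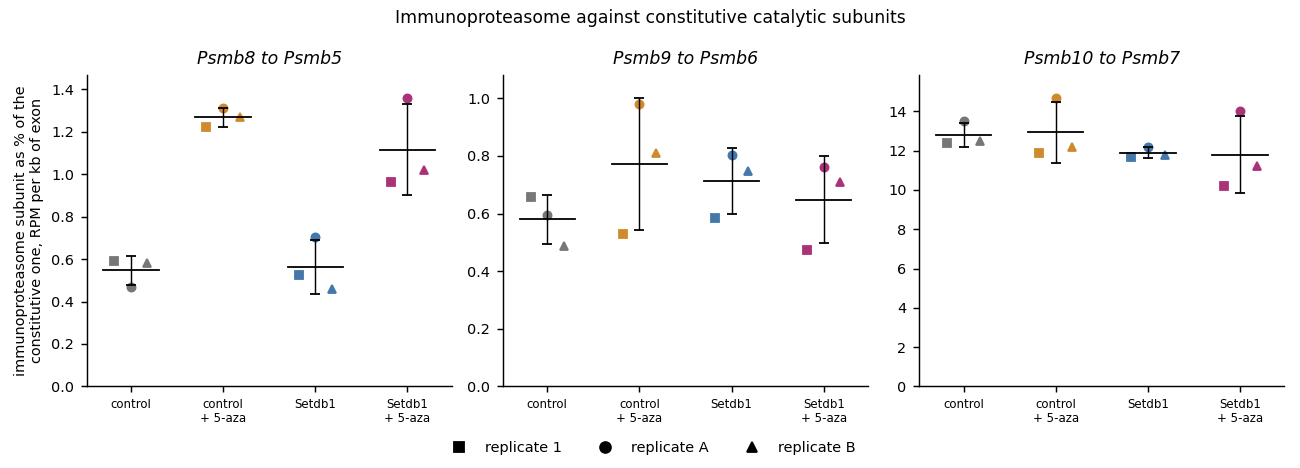
Panels give each immunoproteasome subunit as a percentage of the constitutive subunit it replaces (vertical axis, RPM per kb of exon, from 0) in the 4 hairpin groups, with points as libraries and bars as the mean and SD of 3. The ratio of Psmb8 to Psmb5 was higher in all 5-aza libraries than in those without, from 0.546% to 1.27% on average in control cells. For Psmb9 and Psmb10 the groups with and without 5-aza overlap. Without 5-aza the Psmb10 ratio lies lower in each Setdb1 hairpin library than in any control hairpin library.

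Nlrc5, the class I transactivator, was scarce. It had 0.744, 0.707 and 0.496 RPM in control hairpin replicates 1, A and B and 1.31, 1.077 and 0.949 RPM with 5-aza. Setdb1 hairpin libraries had 0.2385, 0.463 and 0.476 RPM, and 0.652, 1.12 and 0.856 RPM with 5-aza. Groups with and without the drug did not overlap. The rise passed in Setdb1 hairpin cells (2.28-fold, log2 1.19 ± 0.292 SE, adjusted p = 0.0115) and the 1.72-fold difference in control cells did not (log2 0.78 ± 0.292, adjusted p = 0.0804). The interaction was 0.41 on the log2 scale (95% interval -0.50 to 1.31, adjusted p = 0.812). Only 10 to 63 reads per library stood behind these values. Nlrc5 reached 1 RPM only in 5-aza libraries, so its entry into the test was not independent of the drug. With no filter on low values the rise also passed in Setdb1 hairpin cells and not in control cells.

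Few genes of the pathway passed for the Setdb1 hairpin. Without 5-aza, 1 of the 7 genes above 1 RPM in all libraries rose, beside 9.01% of all genes tested, and none of them fell, beside 3.4%. Among all genes changed, the share that was higher went from 72.6% to 48% with median centring. The class I gene was H2-K1, at 14.6 ± 0.877 RPM (SD, n = 3) against 12.5 ± 0.544 RPM (1.17-fold, log2 0.22 ± 0.066 SE, adjusted p = 0.046). Its groups did not overlap, as for 24% of all genes in that direction. That call was lost in 8 of 12 fits that left out 1 library (adjusted p up to 0.161), and held only without control hairpin + 5-aza replicate 1 or A, Setdb1 hairpin replicate B or Setdb1 hairpin + 5-aza replicate A. It was also lost with no filter, other scalings or read weights, and held with a filter at 5 RPM or a replicate block. Nlrc5 lay lower with the hairpin in every library than in any control (10.4% of all genes separated downwards), by 0.77 on the log2 scale, with an adjusted p of 0.109. For Tapbp, Tap1, Psmb8 and Psmb10 the log2 differences were 0.09, -0.06, 0.10 and -0.12, with adjusted p of 0.367 or more.

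With 5-aza on both sides, the gene that passed was H2-D1, beside 14.5% of genes that rose and 5.37% that fell. It had 45.8 ± 3.16 RPM (SD, n = 3) with the Setdb1 hairpin and 37.4 ± 1.16 RPM with the control hairpin (1.22-fold, log2 0.29 ± 0.066 SE, adjusted p = 0.0101), and the groups were apart (24.6% of all genes upwards). Without Setdb1 hairpin + 5-aza replicate 1, the highest library, the adjusted p was 0.0507. H2-K1 was 1.12-fold higher with an adjusted p of 0.104. B2m was at 364 ± 28.7 against 399 ± 13.7 RPM (log2 -0.13, adjusted p = 0.217).

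Set against untreated control cells, cells with both the Setdb1 hairpin and 5-aza showed 5 of the 7 genes higher, beside 29.3% of all genes. H2-K1 rose 1.62-fold (log2 0.70 ± 0.066 SE, adjusted p = 1.27e-05), H2-D1 1.59-fold (log2 0.67 ± 0.066, adjusted p = 1.79e-05), Tap2 1.57-fold and Tapbp 1.44-fold. In these 4 genes the groups were apart, as in 40.1% of all genes. Tap1 rose 1.4-fold (adjusted p = 0.0139) although its groups overlapped, and that call was lost without control hairpin replicate A or B or Setdb1 hairpin + 5-aza replicate B (adjusted p up to 0.0618). Psmb8 rose 2.6-fold. B2m lay lower in all 3 libraries than in any control, a separation seen downwards in 11.4% of genes, with a log2 difference of -0.19 and an adjusted p of 0.0623. This comparison shares its control libraries with those above.

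Whether the drug acted differently by hairpin was tested with the interaction term. None of the 9 tested class I presentation genes passed in limma, none had an unadjusted p under 0.05, and none passed with limma voom on the recovered reads, beside 0.388% of all genes tested. H2-D1 came closest, with a response to 5-aza that was larger by 0.20 on the log2 scale in Setdb1 hairpin cells (limma, adjusted p = 0.794). For H2-K1, Tap2 and Tapbp the difference between backgrounds was -0.06, -0.06 and -0.03, and its 95% intervals stayed within -0.31 to 0.18.

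Among the other heavy chains, H2-T genes were lower with the Setdb1 hairpin. The table holds 12 further class I heavy chain genes, and 5 of them were tested. With the Setdb1 hairpin 2 of the 5 fell, beside 3.4% of all genes, and none rose, beside 9.01%, and their median log2 difference was -0.23 against 0.031 for all genes. H2-T24 was at 5.27, 4.97 and 5.37 RPM in control hairpin libraries and at 2.50, 2.84 and 2.50 RPM in Setdb1 hairpin libraries (log2 -0.995, adjusted p = 6.55e-05). It was also lower when both sides had 5-aza (log2 -0.79, adjusted p = 0.000331). H2-T22, recognised by gamma delta T cells, fell from 28.3 to 24.1 RPM on average (log2 -0.23, adjusted p = 0.0104). H2-T23, which encodes the Qa-1 ligand of NKG2A receptors, passed with 5-aza on both sides (log2 -0.50, adjusted p = 0.0233), and with the drug the groups of H2-T22, H2-T23 and H2-T24 stood apart, as 10% of genes did downwards. H2-Q4 lay higher with the hairpin, by 0.40 on the log2 scale both without and with 5-aza, with the groups apart and an adjusted p of 0.126 and 0.0969. With 5-aza 3 of the 5 rose in control cells (H2-T22, H2-T23 and H2-Q4), beside 13.47% of all genes, and 2 in Setdb1 hairpin cells (H2-T22 and H2-Q4), beside 21.4%. H2-Q4 rose by 0.76 in each (adjusted p = 0.00757 and 0.00559). It reached 1 RPM only in 5-aza libraries, so its entry into the test, and into these counts, was not independent of the drug. The entry of H2-M3 also relied on 5-aza libraries. Without the drug it was at 0.680 to 1.01 RPM in control and 0.731 to 0.968 RPM in Setdb1 hairpin libraries. How far reads of these related genes could be split between them was not measured.

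Several class I-like genes rose with the Setdb1 hairpin or with 5-aza. The table holds 10 of them, of which 8 were tested. With the Setdb1 hairpin 3 of the 8 rose, beside 9.01% of all genes, with a median log2 difference of 0.28 over the 8. Ulbp1, a ligand of the NK cell receptor NKG2D, was at 5.55, 4.90 and 5.83 RPM with the control hairpin and 22.2, 19.3 and 19.9 RPM with the Setdb1 hairpin (log2 1.92 ± 0.088 SE, adjusted p = 1.84e-07), and at 6.01, 6.95 and 6.03 against 27.0, 23.9 and 23.3 RPM with 5-aza (log2 1.97, adjusted p = 2.11e-07). Raet1d and Raet1e, other NKG2D ligands, rose by 0.55 and 0.65 (adjusted p = 0.00153 and 0.000169). Raet1e was matched by gene ID, and the deposited values name it Raet1c. With 5-aza on both sides 4 of the 8 rose, beside 14.5% of all genes, among them Procr, the endothelial protein C receptor (log2 0.70, adjusted p = 0.00244), and Fcgrt, the neonatal Fc receptor, fell (log2 -0.45, adjusted p = 0.0255). With 5-aza 4 of the 8 rose in control and 6 in Setdb1 hairpin cells, beside 13.47% and 21.4% of all genes, for example Hfe, a regulator of iron uptake (log2 0.46 and 0.66, adjusted p = 0.0216 and 0.00292), and Cd1d1, which presents lipids (log2 0.51 and 0.47, adjusted p = 0.0074 and 0.00814). None of the 8 fell with the drug, beside 5.34% of all genes in control and 7.51% in Setdb1 hairpin cells.

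**Figure D4:**
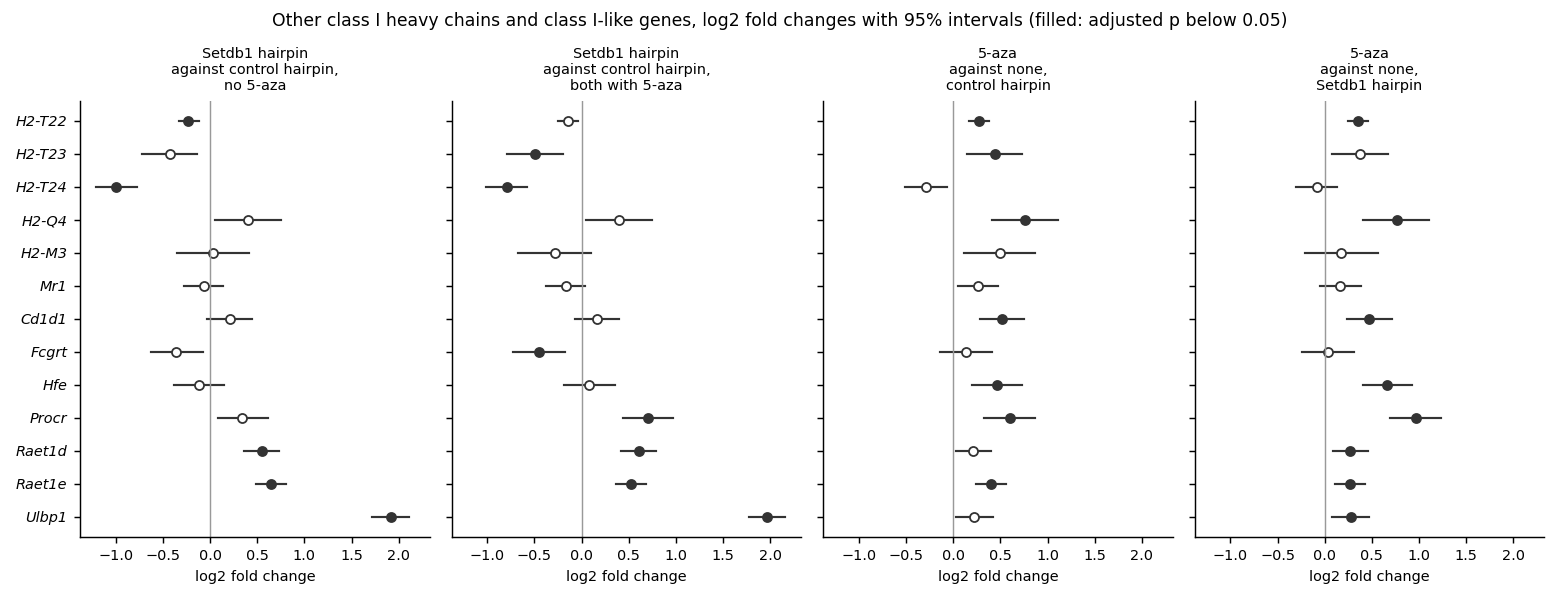
Log2 fold changes (horizontal axis) with 95% intervals for the 5 further class I heavy chains and the 8 class I-like genes that were tested, in 4 comparisons; filled points have an adjusted p under 0.05. With the Setdb1 hairpin H2-T24 lies near -0.995 and Ulbp1 near 1.92, and with 5-aza all points but those of H2-T24 lie above 0.

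The shared machinery around the pathway was followed in gene lists. Of 9 genes for peptide loading and trimming, such as calreticulin (Calr), 1 rose with 5-aza in control cells, beside 13.47% of all genes. This was Sec61b, a subunit of the translocation channel (log2 0.34, adjusted p = 0.0214). None fell, beside 5.34% of all genes. With the drug in Setdb1 hairpin cells the chaperone Hspa5 and Sec61a1 fell (log2 -0.17 and -0.12, adjusted p = 0.0101 and 0.0277), beside 7.51% of all genes. With the Setdb1 hairpin none of the 9 passed in limma or in voom, and 1 had an unadjusted p under 0.05. In limma 9.01% of all genes rose there and 3.4% fell. Of 6 cytosolic peptidases, Blmh fell with 5-aza in both backgrounds (log2 -0.34 and -0.33), while Npepps and Ide rose in control cells (log2 0.12 each, adjusted p = 0.0365 and 0.0337). Blmh also rose with the Setdb1 hairpin where both sides had 5-aza (log2 0.15, adjusted p = 0.0402). None of the 11 other core subunits of the 20S proteasome passed with 5-aza in control cells, where 13.47% of all genes rose and 5.34% fell. In Setdb1 hairpin cells 7 of the 11 rose, beside 21.4% of all genes, led by Psmb3 (log2 0.33), Psmb4 (0.26), Psmb2 (0.20) and Psma7 (0.20). With 5-aza on both sides Psma6 (log2 0.22) and the assembly chaperone Psmg2 (log2 0.22) rose with the Setdb1 hairpin. Psme2, a subunit of the interferon-inducible PA28 activator, rose in both (log2 0.39, adjusted p = 0.00782, and 0.49, adjusted p = 0.00181), and Psme1, its partner, in Setdb1 hairpin cells (log2 0.14, adjusted p = 0.0475), where Psme3, the subunit of another activator, fell (log2 -0.10, adjusted p = 0.0288).

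Of the regulators that act on class I genes 12 of 14 in the table were tested. With 5-aza in control cells none rose, beside 13.47% of all genes. Ezh2, a histone H3 lysine 27 methyltransferase, fell (log2 -0.41, adjusted p = 0.0369), beside 5.34% of all genes. With 5-aza in Setdb1 hairpin cells the NF-κB subunit Rela rose by 0.10 (adjusted p = 0.0459). With the Setdb1 hairpin Nfyb, a subunit of the Y box factor NF-Y, rose without and with 5-aza (log2 0.23, adjusted p = 0.0203, and 0.25, adjusted p = 0.00907), and Ezh2 rose with 5-aza on both sides (log2 0.45, adjusted p = 0.0237). Irf1 was at 6.73 to 7.92 RPM in control cells and 6.57 to 9.39 RPM with 5-aza (log2 0.12, adjusted p = 0.668). Each of 10 interferon genes in the table had 0 reads in all 12 libraries, which allows up to 0.051 to 0.0716 RPM per library at 3 reads.

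Among interferon receptor and signalling genes, the receptor kinase Tyk2 rose with 5-aza in control and Setdb1 hairpin cells (log2 0.20, adjusted p = 0.00791, and 0.18, adjusted p = 0.00974). Irf7 rose from 0.646 to 1.10 RPM to 1.94 to 2.80 RPM in Setdb1 hairpin cells (log2 1.52 ± 0.227 SE, adjusted p = 0.000961). Its entry into the test relied on 5-aza libraries. Replicate A was highest in both 5-aza groups for Stat2, Irf9, Irf1 and Irf7, and it was also highest there for H2-K1, Tap2, Tapbp, Psmb9 and Psmb10. Tap1 was highest in replicate A of both too, but in Setdb1 hairpin cells only by 16.20 against 16.19 RPM. Replicate A was lowest in both for H2-D1. For B2m and Psmb8 it was lowest in control cells with 5-aza and highest in Setdb1 hairpin cells with 5-aza. For Nlrc5 it was highest in Setdb1 hairpin cells with 5-aza and between the others in control cells with 5-aza. Without the replicate A libraries of both 5-aza groups, the same 5 of the 7 genes above 1 RPM in all libraries passed for the drug in control and in Setdb1 hairpin cells, beside 22% and 33.6% of all genes changed in either direction.

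**Figure D5:**
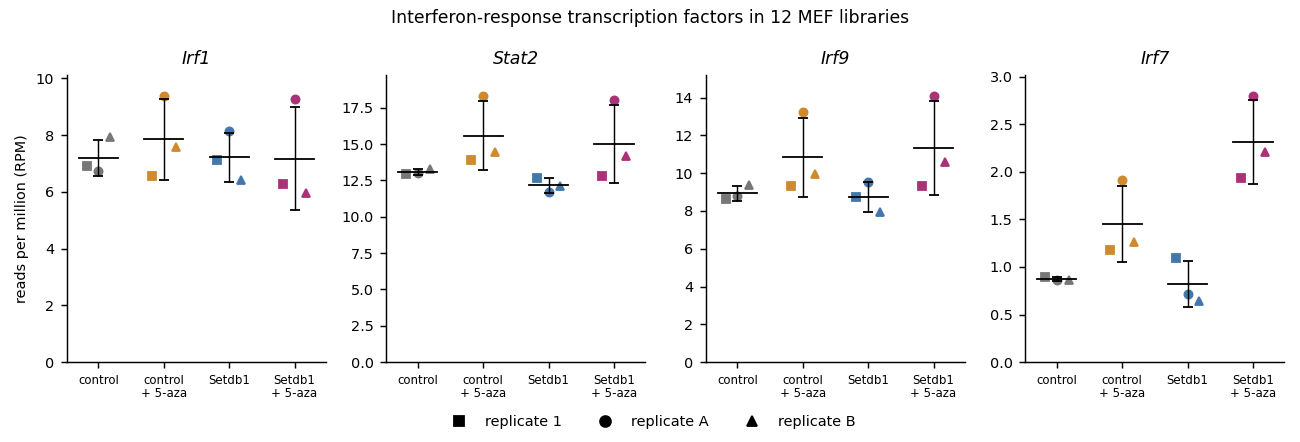
RPM (vertical axis, from 0) of 4 transcription factors of the interferon response in the 4 hairpin groups, with points as libraries, shaped by replicate, and bars as the mean and SD of 3. Replicate A of each 5-aza group stands above its group's other libraries, for example at 18.3 RPM against 13.9 and 14.5 RPM for Stat2 in control cells.

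Markers of other cell types were measured beside these results. The 15 macrophage markers summed to 11.3 to 12.1 RPM in control and 11.4 to 11.96 RPM in Setdb1 hairpin cells, and with 5-aza to 15.0 to 16.9 and 14.7 to 15.7 RPM. Csf1r made up much of each sum and rose (log2 0.27 and 0.28), and 3 of the 15 were tested. Itgam rose with 5-aza in control cells, from 0.302 to 0.512 RPM to 1.15 to 1.31 RPM (log2 1.66, adjusted p = 0.000621), and Cd68 rose in Setdb1 hairpin cells, from 1.515 to 2.11 RPM to 2.34 to 3.11 RPM (log2 0.52, adjusted p = 0.0281). Itgam was under 1 RPM in control cells without the drug, so its entry into the test was not independent of 5-aza. Of the 3 tested, 1 (Itgam) was lower with the Setdb1 hairpin where both sides had 5-aza, beside 5.37% of all genes. In the interaction 1 of the 3 (again Itgam) passed, with a lower response to the drug in Setdb1 hairpin cells, beside 0.388% of all genes. The highest Itgam value of the 12 libraries, 1.31 RPM, was in control cells with 5-aza. That group enters both comparisons, so the entry of Itgam into the test was not independent of these 2 results either. Of genes not tested, Lyz2 had 0.475 to 0.765 RPM in control cells and 0.856 to 1.10 RPM with 5-aza, and Cd14 reached 1.47 RPM. C1qa, C1qb, C1qc, Tyrobp and Aif1 were at or under 0.323 RPM in every library, and the 0.323 RPM was C1qb in control cells with 5-aza. The 6 epithelial markers summed to 26.0 to 29.4 RPM in control and 31.5 to 46.7 RPM in Setdb1 hairpin cells, and with 5-aza to 38.4 to 51.2 and 62.3 to 75.2 RPM, and 3 of the 6 were tested. Krt19 made up most of the sum and rose with 5-aza in Setdb1 hairpin cells (log2 0.65, adjusted p = 0.0192). Krt18 rose in all 4 comparisons of hairpin or drug (log2 1.64 with 5-aza in control cells), and Krt8 had 0.0177 to 0.0216 RPM, or 1 read per library, in control hairpin cells and 1.96 to 2.88 RPM with both the Setdb1 hairpin and 5-aza. Endothelial markers summed to 7.07 to 8.22 RPM and to 4.24 to 6.30 RPM with 5-aza in control cells, where Emcn fell (log2 -1.09). Fibroblast genes moved too, with Col1a1 lower (log2 -0.73) and Vim higher (log2 0.20) with 5-aza in Setdb1 hairpin cells. Of 9 genes of the MHC class II pathway 1 was tested, H2-DMa, which rose with 5-aza in Setdb1 hairpin cells (log2 0.44), and the list summed to 2.26 to 4.37 RPM. The part of these cell types in the class I results was not tested.

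Across the 12 libraries, the genes most like H2-K1 in log2 RPM were Ctsb, which encodes the lysosomal protease cathepsin B (Pearson r = 0.985), Angptl2 (0.984), Rab34 (0.982), the interferon-inducible Ifi204 (0.976) and Prkar1a (0.975). Within the pathway H2-K1 was closest to Tapbp (r = 0.958), then to Tap2 and Psmb8 (0.919 each), and went against B2m (-0.515). For Tap1 the closest were Ddit4l (0.972), Celf5 (0.971), Tusc2 (0.970), Vat1 (0.970) and Man1a (0.969), and for Nlrc5 they were Map1lc3b (0.973), Pskh1 (0.969), Lrpap1 (0.964), Atp6ap1 (0.957) and Reep2 (0.956). These correlations are descriptions over 12 libraries that share 4 groups, taken from 13133 genes, and so follow the contrast between groups.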

How the data were processed

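The authors deposited 1 table of log2 RPM values (log2 of reads per 1000000 reads) for 13 MEF poly(A) libraries (Illumina TruSeq RNA, 100-base single-end reads). The processing notes name mm10 and CASAVA 1.4. The aligner, the counter and strand use are not given in the sources used here. Genes with no read hold the value of 0.9 read, and all low values were whole multiples of 1 read within 0.1 read, so reads were recovered from the values.

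Values of 13134 genes (at least 1 RPM in 3 of the 12 hairpin libraries) went into limma 3.58.1 (R 4.3.3) with a trend, all 12 libraries in 1 fit and 6 contrasts. Tests were two-sided with Benjamini-Hochberg adjustment over all genes tested at 0.05. Errors are SE of the fit or SD over 3 libraries. Fold changes are on the log2 RPM scale with the floor at 0.9 read. The limma step was tested on simulated data. Ratios of subunits were tested by exact permutation. The library with no named hairpin entered no fit. Recovered totals of 36.4 to 51.3 M reads limit the precision of genes near 1 RPM, and limits cover counting error only.

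The members and gene lists were chosen with earlier results of these data known. Named genes were all 10 members, Setdb1, and from each list up to 4 changed genes per comparison with the largest change or, for markers, the most abundant ones; further ones (Irf1, Calr, Stat2, Irf9, Fcgrt, Lyz2, Krt8, C1qa, C1qb, C1qc, Tyrobp, Aif1) were named after their values were seen, and 1 gene of the interferon signalling list is not reported here. Exon lengths and gene positions came from GENCODE M21 (GRCm38), and promoters from RefSeq (GRCm38.p6). Alternatives were another filter, pseudocount, scaling, voom, samples or block. Deviations from group means correlated by replicate between Setdb1 hairpin libraries with and without 5-aza (0.413 to 0.634 across genes). In control hairpin cells the correlation was 0.586 for replicate 1, 0.149 for A and 0.0999 for B. Between the hairpins it was 0.484, 0.686 and -0.0197 with 5-aza, and 0.0979, 0.19 and -0.47 without it. These values do not settle which libraries the replicate labels pair. Other tools were matplotlib 3.10.9, scipy 1.17.1, pandas 2.3.3, numpy 2.4.6 and Python 3.11.15.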

Additional observations from a re-analysis of the deposited data

Results flagged for a closer look

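One library, from cells with 5-aza whose title names no hairpin, is in no group of the labels and entered no test. Its library name holds PGK, the strain of the paternal X, and the study's methods used a PGK sample to define that strain's variants. Its cross is not labelled, so differences of strain, hairpin and culture between this library and the others cannot be told apart. Each of the 10 class I antigen presentation genes was higher in it than in the highest control hairpin library with 5-aza, and 8 of the 10 were above all 12 hairpin libraries. Of all 13134 genes tested, 37.6% and 19.4% were higher in this library by the same measures. It had 30.0 RPM of H2-K1, 46.6 of H2-D1, 462 of B2m, 19.5 of Tap1, 13.2 of Tap2, 80.1 of Tapbp, 3.34 of Psmb8, 0.932 of Psmb9, 5.99 of Psmb10 and 1.32 of Nlrc5. Its value was 1.91 times the mean of the control hairpin libraries with 5-aza for Psmb8 and 1.05 times that mean for Tap2. The same library had 57.9 RPM of Stat2 and 8.54 of Irf7, above all hairpin libraries, while the 10 interferon genes were at its floor for 0 reads. Its 15 macrophage markers summed to 222 RPM, with C1qa at 19.1 and Lyz2 at 55.9 RPM. It holds 17.4 M reads in genes, fewer than any hairpin library. The part of these markers in its class I levels was not tested.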

How the results depend on the processing

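With 5-aza, H2-K1, H2-D1, Tap2, Tapbp and Psmb8 passed in both hairpin backgrounds under every alternative that tested them. Correlation by replicate was most even between Setdb1 hairpin libraries with and without 5-aza. For 5-aza in these cells a fit with a replicate block by culture gave 7 genes, as did the fit without it. The share of all genes changed was 40.2% with and 28.9% without the block. A replicate block over all 12 libraries was also fitted, although the labels do not say what replicates of different hairpins share. It gave 2 genes in place of 1 for the Setdb1 hairpin with 5-aza on both sides (H2-K1, log2 0.16, adjusted p = 0.0373), and B2m lower with both treatments (log2 -0.19, adjusted p = 0.0323). Among other comparisons the block by culture added Nlrc5 for 5-aza in control cells (7 genes, adjusted p = 0.00948). For the Setdb1 hairpin without 5-aza, the count of 1 became 0 with no filter, log2(RPM + 1), median centring, voom on recovered reads, only the groups compared, or only replicates A and B, and with quantile normalization the 1 gene was Nlrc5 (log2 -1.089, adjusted p = 0.0452). In that comparison the count stayed at 1 (H2-K1) with a filter at 5 RPM, the replicate block, or the replicate A libraries with 5-aza left out. Leaving out 1 library gave 0 to 1 there and 0 to 1 with 5-aza on both sides.

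Differences near 0 changed sign. With only replicates A and B, Tap1 was at 0.137 for the Setdb1 hairpin, 0.082 with 5-aza on both sides and -0.055 in the interaction, and the ratio of Psmb10 to Psmb7 was at 0.063 for 5-aza in Setdb1 hairpin cells. Quantile normalization put Psmb8 at -0.139 for the Setdb1 hairpin, -0.008 with 5-aza on both sides and 0.130 in the interaction, Psmb10 at -0.011 for 5-aza in control cells and -0.134 for both treatments, and Nlrc5 at -0.024 for both treatments, where Tap1 was lost (log2 0.354, adjusted p = 0.0592). Median centring put Tapbp at -0.007 and Psmb8 at -0.016 with 5-aza on both sides and Psmb10 at -0.052 for both treatments, where B2m passed (log2 -0.296, adjusted p = 0.0137). With log2(RPM + 1) the ratio of Psmb8 to Psmb5 was at -0.021 for the Setdb1 hairpin and that of Psmb10 to Psmb7 at -0.007 for 5-aza in control cells. Without the replicate A libraries with 5-aza, an alternative chosen after seeing the data, Psmb8 was at -0.071 with 5-aza on both sides, and B2m passed for both treatments (log2 -0.255, adjusted p = 0.0177).

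Leaving out 1 library in turn, the log2 difference for the Setdb1 hairpin ran from -0.144 to 0.017 for B2m, -0.192 to 0.10 for Tap1 and -0.044 to 0.259 for Psmb8, and with 5-aza on both sides from -0.098 to 0.054 for Tap1 and -0.051 to 0.093 for Psmb8. The interaction ran from -0.152 to 0.010 for B2m, -0.128 to 0.164 for Tap1, -0.137 to 0.022 for Tap2, -0.088 to 0.004 for Tapbp and -0.214 to 0.088 for Psmb8. The log2 ratio of Psmb8 to Psmb5 ran from -0.140 to 0.167 for the Setdb1 hairpin, that of Psmb9 to Psmb6 from -0.288 to 0.060 for 5-aza in Setdb1 hairpin cells, and that of Psmb10 to Psmb7 from -0.086 to 0.066 and -0.158 to 0.075 for 5-aza in control and Setdb1 hairpin cells. B2m fell with 5-aza in Setdb1 hairpin cells without Setdb1 hairpin replicate 1 (adjusted p = 0.0469). The cause of these changes was not tested, and 10 to 63 reads per library limit Nlrc5 and 19 to 41 limit Psmb9.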
